A study of Mus musculus with 6 samples.

Results

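The osteocalcin gene cluster was followed through 6 mouse femur RNA-seq libraries. Its members were taken by name and comprised Bglap, Bglap2 and Bglap3, which are 3 of the 22824 genes and transcripts listed for each library. All 3 were matched by Ensembl identifier and are therefore described in full. RNA came from femurs of C57BL/6 mice that were described as freed of cartilage and marrow. In the OE group (3 libraries, genotype Wnt7b overexpression), the 9.6 kb DMP1-Cre transgene switched on a Wnt7b allele at the R26 locus, and the animals were homozygotes. The Ctrl group (3 libraries) held littermates with the R26-Wnt7b allele and no Cre. Dmp1 regulatory sequence drives Cre mainly in osteocytes and late osteoblasts. Both groups carry the Wnt7b allele, and the Ctrl animals lack the recombinase. Neither the age of the animals nor whether each library had its own animal is stated in the labels, so p-values measure the spread between these libraries, which may in part be technical.

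Osteocalcin, or bone gamma-carboxyglutamate protein, is a small protein that late osteoblasts and osteocytes secrete into bone matrix. Vitamin K-dependent carboxylation of its glutamate residues lets it bind calcium in the mineral, and the protein that escapes into blood serves as a marker of bone formation. The mouse carries a tandem cluster of osteocalcin genes. Bglap and Bglap2 are the copies known for expression in bone, and Bglap3 is the osteocalcin-related copy known in the mouse for expression outside bone, in kidney among other tissues.

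All 3 genes lie on the minus strand of mouse chromosome 3 (GRCm38, GENCODE M21), within 15849 bases. Bglap (ENSMUSG00000074483) occupies 88383501 to 88384464, Bglap2 (ENSMUSG00000074486) 88377736 to 88378699, and Bglap3 (ENSMUSG00000074489) 88368616 to 88372743. The gap between Bglap and Bglap2 is 4801 bases and that between Bglap2 and Bglap3 is 4992 bases. Bglap and Bglap2 each have 1 coding transcript, of 440 and 471 bases, and Bglap3 has 3, of 717 to 2051 bases. The coding exons are shown because the copies can be told apart in RNA-seq only where they differ. The coding sequences from start to stop codon, from the annotated transcripts, are printed in lower case. Capitals in Bglap mark the bases at which Bglap2 differs from it, and capitals in Bglap2 and Bglap3 mark the bases that differ from Bglap.
Bglap: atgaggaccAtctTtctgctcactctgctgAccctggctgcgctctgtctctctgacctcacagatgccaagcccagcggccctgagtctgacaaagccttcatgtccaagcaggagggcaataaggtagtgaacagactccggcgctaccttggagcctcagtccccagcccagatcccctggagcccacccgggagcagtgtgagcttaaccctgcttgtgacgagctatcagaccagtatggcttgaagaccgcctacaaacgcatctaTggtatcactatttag
Bglap2: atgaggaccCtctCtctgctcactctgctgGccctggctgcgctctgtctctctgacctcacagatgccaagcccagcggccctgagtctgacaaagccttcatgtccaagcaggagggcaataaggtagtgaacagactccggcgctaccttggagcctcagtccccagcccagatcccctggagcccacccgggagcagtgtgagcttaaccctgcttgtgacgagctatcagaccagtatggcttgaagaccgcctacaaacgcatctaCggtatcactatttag
Bglap3: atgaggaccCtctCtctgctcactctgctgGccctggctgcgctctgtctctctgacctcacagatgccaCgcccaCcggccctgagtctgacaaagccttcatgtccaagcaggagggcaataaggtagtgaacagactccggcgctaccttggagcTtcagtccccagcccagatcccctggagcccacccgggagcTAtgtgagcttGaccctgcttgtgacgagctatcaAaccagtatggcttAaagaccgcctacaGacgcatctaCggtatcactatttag
Each coding sequence is 288 bases long. Bglap and Bglap2 differ at 4 of them (98.6% identity), and Bglap3 differs from Bglap at 13 (95.5%) and from Bglap2 at 9 (96.9%). Over the whole coding transcript, 56.3% of all 100-base windows of Bglap and 57.0% of those of Bglap2 also occur in an annotated transcript of another copy, against 3.24% for Bglap3 (transcript of 717 bases). With 50-base windows the shares are 74.7%, 88.2% and 24.0%. Read length and the handling of reads that fit several copies are not stated in the labels, so the split of reads between Bglap and Bglap2 is uncertain. Their summed FPKM depends on it too, since the transcripts differ in length, and on whether reads that fit several copies were kept.

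**Figure D1:**
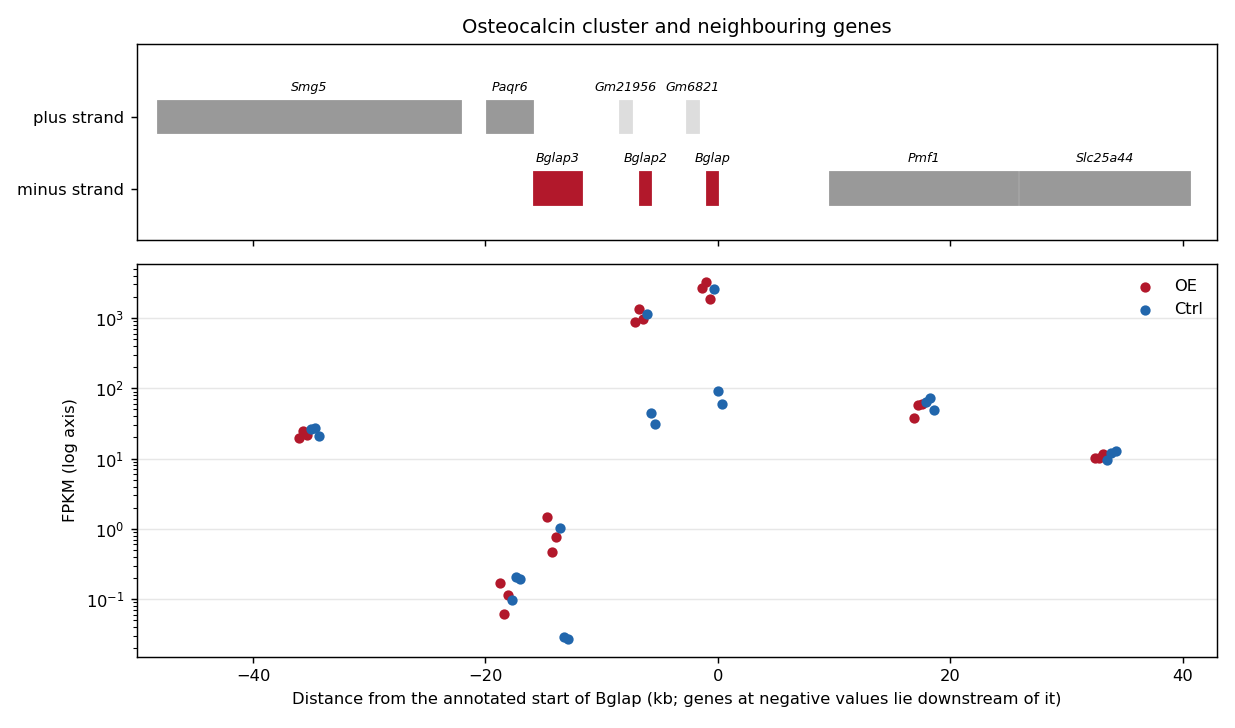
Map of the osteocalcin cluster with its neighbours (upper panel; boxes are annotated genes, members in red, pseudogenes in pale grey) and the FPKM of each listed gene in every library on a log axis (lower panel; 3 points for OE in red, then 3 for Ctrl in blue). The x axis gives the distance from the annotated start of Bglap in kb. Ctrl 2 and Ctrl 3 lie far below the other 4 libraries for the 3 osteocalcin genes, and the neighbours Smg5, Pmf1 and Slc25a44 lie close together in all 6.

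The regions before the starts of Bglap and Bglap3 were available from RefSeq (GRCm38.p6), and Bglap2 had no entry. They are shown because the genes move together in these libraries. The search covered only the 250 bases up to each start. They are printed on the minus strand, for Bglap chr3:88384467-88384716 and for the outermost of 3 annotated starts of Bglap3 chr3:88372742-88372991. Capitals mark matches to 4 motifs searched on both strands: the RUNX core ACCACA, bound by Runx2, the site TTACATCA, bound by Atf4 in this promoter, the TATA box TATAAA and the TCF/LEF core CTTTGA, through which Wnt signals act on transcription.
Bglap upstream: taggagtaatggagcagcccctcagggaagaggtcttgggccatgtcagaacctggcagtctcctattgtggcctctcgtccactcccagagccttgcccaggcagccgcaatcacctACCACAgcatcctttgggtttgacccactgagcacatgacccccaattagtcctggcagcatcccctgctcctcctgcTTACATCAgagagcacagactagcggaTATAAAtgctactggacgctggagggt
Bglap3 upstream: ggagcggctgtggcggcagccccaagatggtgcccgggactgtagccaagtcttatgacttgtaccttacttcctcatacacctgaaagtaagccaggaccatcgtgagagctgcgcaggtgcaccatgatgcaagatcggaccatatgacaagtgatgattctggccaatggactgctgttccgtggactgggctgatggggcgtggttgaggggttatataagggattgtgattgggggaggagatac
The Bglap region holds the RUNX core with its first base at -132 from the start, the Atf4 site at -54 and the TATA box at -27. The TCF/LEF core has no match in it, and none of the 4 motifs has a match in the Bglap3 region or in the regions of its other starts. Only these exact letters were searched. The printed Bglap3 region holds the similar stretch tatataag, so the search does not show that Bglap3 lacks a TATA box. The motifs do not overlap each other. Among 32851 regions of this length in the table, 14.05% hold the RUNX core, 0.965% the Atf4 site, 12.4% the TATA box and 13.8% the TCF/LEF core. The motifs were chosen with the Bglap region known, and a match describes letters, not binding.

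Expression was deposited as FPKM, a fragment count scaled to transcript length and library size. OE 1, 2 and 3 held 2.49, 0.661 and 0.295 FPKM of Wnt7b, which the OE mice were built to express, and the 3 Ctrl values were 0.909 for the library labelled Ctrl 1, 0.00833 for Ctrl 2 and 0 for Ctrl 3. That 0.909 is above OE 2 and OE 3, and whether the label is right was not tested. Ctrl 2 and Ctrl 3 were also low in bone cell markers, as given below. The osteocalcin comparisons are therefore also given without the library labelled Ctrl 1. It was singled out after its values were seen, and only Ctrl 2 and Ctrl 3 then remain as Ctrl. All p-values and calls without it are thus descriptive. Over the genes tested, the log2 levels of the library labelled Ctrl 1 had a Pearson correlation of 0.989 with OE 2, and Ctrl 2 and Ctrl 3 had 0.990 with each other. The lowest values moved in steps of whole fragments, from which relative depth was estimated, with the shallowest library, OE 2, set to 1. OE 1 and OE 3 had 1.06 and 1.12, the library labelled Ctrl 1 had 1.13, and Ctrl 2 and Ctrl 3 had 1.01 and 1.17. The FPKM worth of 1 fragment on a transcript of 1 kb was 0.0261 to 0.0292 in OE and 0.0249 to 0.0287 in Ctrl.

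Bglap was among the most abundant transcripts of the OE femurs. OE 1, 2 and 3 held 2711, 3254 and 1891 FPKM of Bglap, the library labelled Ctrl 1 held 2552, and Ctrl 2 and Ctrl 3 held 91.8 and 58.8. The groups overlapped, because the library labelled Ctrl 1 lay above OE 3, whereas Ctrl 2 and Ctrl 3 lay below every other library. In rank among all 22824 listed rows Bglap was 15th, 18th and 26th in OE and 20th in the library labelled Ctrl 1, and was 1035th in Ctrl 2 and 1461st in Ctrl 3. Mean Bglap was 2619 ± 686 FPKM over OE and 901 ± 1429.9 over Ctrl (SD, n = 3 each). With limma on log2(FPKM + 1) the difference was 3.40 (SE 1.33) and did not pass (adjusted p = 0.554, unadjusted p = 0.0384).

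Bglap2 followed the same libraries at a lower level. It stood at 886, 1360.4 and 963 FPKM across OE 1 to 3, 1136 for the library labelled Ctrl 1, with 44.3 and 31.2 for Ctrl 2 and Ctrl 3. OE 2 was the highest library for Bglap2 as for Bglap, while OE 1 was the lowest OE library here and OE 3 was the lowest for Bglap. Mean Bglap2 was 1069.8 ± 255 FPKM over OE and 404 ± 634 over Ctrl (SD, n = 3 each). The limma difference was 3.15 (SE 1.27, adjusted p = 0.554, unadjusted p = 0.0428), again within the spread of the Ctrl libraries.

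Bglap3 was present at a trace. It stood at 1.49, 0.469 and 0.768 FPKM across OE 1 to 3, 1.01 for the library labelled Ctrl 1, with 0.0286 and 0.0271 for Ctrl 2 and Ctrl 3. With coding transcripts of 717 to 2051 bases, the values in Ctrl 2 and Ctrl 3 amount to 0.714 to 2.04 and 0.781 to 2.23 fragments, below a floor of 3, so no ratio to them is given, and fitted differences of Bglap3 depend on the number added before the log. At the full length of the shortest coding transcript, the OE values amount to about 38.6, 11.5 and 21.1 fragments and that of the library labelled Ctrl 1 to about 28.2. For Bglap the counts are of another order, at most 43189, 49104 and 31851 fragments across OE 1 to 3, 43659.5 for the library labelled Ctrl 1, with 1407 and 1039 for Ctrl 2 and Ctrl 3. Bglap3 lay below the filter of 1 FPKM in 3 libraries and was kept in the model by hand. Its limma difference was 0.53 (SE 0.34, adjusted p = 0.588), on a scale where the added 1 shrinks the change of so low a gene. How many of its fragments came from the other copies was not tested.

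**Figure D2:**
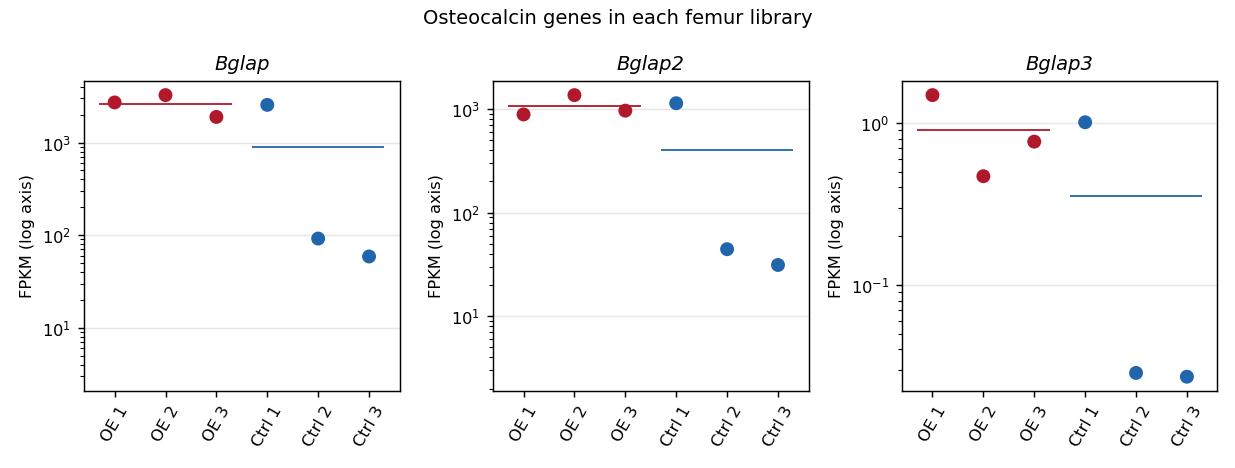
FPKM of Bglap, Bglap2 and Bglap3 in each library on log axes, with OE libraries in red, Ctrl libraries in blue and lines at the group means. In each panel the library labelled Ctrl 1 lies within the range of the 3 OE points, and Ctrl 2 and Ctrl 3 lie lowest.

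No gene among the 12177 tested passed an adjusted p of 0.05 with all 6 libraries (0% called by limma; at an unadjusted p under 0.05, 502 were higher and 497 lower in OE). With the library labelled Ctrl 1 left out, 605 of 12017 genes passed (5.03%), 525 higher (4.37%) and 80 lower (0.666%) in OE. Bglap and Bglap2 were then called higher in OE. As the omission was chosen with the values seen, these calls describe OE against Ctrl 2 and Ctrl 3 and are not an independent test. With all 6 libraries no member had every OE value above every Ctrl value (4.59% of genes tested did), and without the library labelled Ctrl 1 all 3 members did (17.7% of genes tested). The limma difference of Bglap was 5.10 (SE 0.35, adjusted p = 0.00295) and that of Bglap2 4.78 (SE 0.29, adjusted p = 0.00295). Bglap3 differed by 0.86 (SE 0.27, adjusted p = 0.158) and did not pass. In OE the mean of Bglap was 34.8-fold the mean of Ctrl 2 and Ctrl 3, and 1.03-fold its value in the library labelled Ctrl 1. For Bglap2 these ratios were 28.3 and 0.942.

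The sum of the 3 genes had the same high and low libraries. It was 3598, 4615 and 2855 FPKM across OE 1 to 3, 3689 for the library labelled Ctrl 1, with 136 and 90.0 for Ctrl 2 and Ctrl 3. Osteocalcin took 0.586%, 0.595% and 0.479% of all FPKM across OE 1 to 3, 0.503% for the library labelled Ctrl 1, with 0.0178% and 0.0145% for Ctrl 2 and Ctrl 3. The mean log2(sum + 1) was 11.82 ± 0.35 in OE and 8.49 ± 2.93 in Ctrl (SD, n = 3 each). The difference was 3.34, with p = 0.3 by exact two-sided permutation, and 0.1 is the smallest p that 3 libraries against 3 can give. It was 5.02 when the library labelled Ctrl 1 was left out.

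The share of each copy varied far less than the level. Bglap made up 75.3%, 70.5% and 66.2% of the summed FPKM across OE 1 to 3, 69.2% for the library labelled Ctrl 1, with 67.4% and 65.3% for Ctrl 2 and Ctrl 3. Bglap2 made up 24.6%, 29.5% and 33.7% across OE 1 to 3, 30.8% for the library labelled Ctrl 1, with 32.6% and 34.7% for Ctrl 2 and Ctrl 3. In the deposited values Bglap was the larger copy in each of the 6 libraries, with its share highest in OE 1 and lowest in Ctrl 3. The split of reads between Bglap and Bglap2 is uncertain, as said above, and these shares depend on it. The summed level spanned 51.2-fold between libraries, while the ratio of Bglap to Bglap2 ran from 1.88 to 3.06. The Bglap share averaged 70.7 ± 4.56% in OE and 67.3 ± 1.94% in Ctrl (SD, n = 3 each), a difference of 3.39 percentage points (exact two-sided permutation p = 0.3). The groups overlapped, since OE 3 lay below Ctrl 2, and no difference in share was detectable between them. The difference was 4.33 points without the library labelled Ctrl 1, 1.07 points without OE 1 and 5.63 points without OE 3. Bglap3 held 0.0102% to 0.0413% in OE and 0.0210% to 0.0301% in Ctrl (exact two-sided permutation p = 1.0). Its shares in Ctrl 2 and Ctrl 3 rest on values below the floor of 3 fragments, so this test cannot show that the share is stable.

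**Figure D3:**
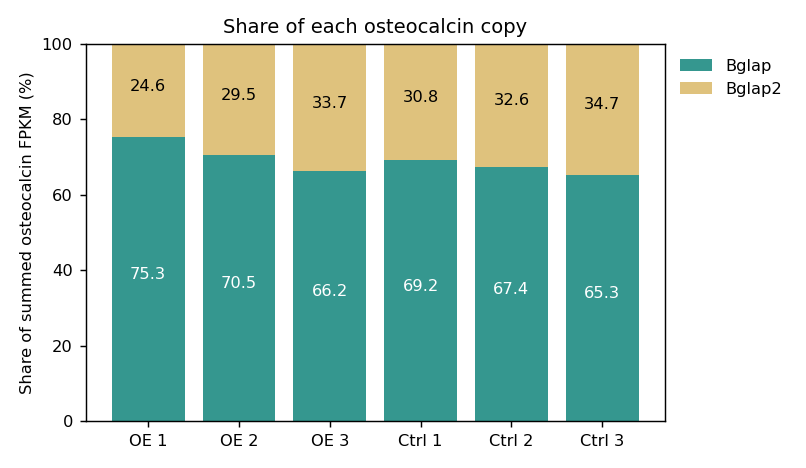
Share of the summed osteocalcin FPKM taken by Bglap and Bglap2 in each library, in percent; Bglap3, at most 0.0413%, is too small to see. Bglap holds 65.3% to 75.3% in every library, including those where the sum is lowest.

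With all 6 libraries no gene passed (0% of those tested), so the same holds for the tested genes on either side of the cluster. Pmf1, upstream of Bglap and part of a kinetochore complex, stood at 38.1, 57.4 and 58.8 FPKM across OE 1 to 3, 63.4 for the library labelled Ctrl 1, with 72.6 and 48.8 for Ctrl 2 and Ctrl 3. Its limma difference was -0.26 (SE 0.23, adjusted p = 0.677), and the groups overlapped. Smg5, a factor of nonsense-mediated mRNA decay on the other side, differed by -0.17 (SE 0.16, limma adjusted p = 0.705), and Slc25a44, a mitochondrial carrier gene next to Pmf1, by -0.09 (SE 0.16, limma adjusted p = 0.839). Without the library labelled Ctrl 1, Pmf1 differed by -0.23 (limma adjusted p = 0.734) and Smg5 by -0.12 (limma adjusted p = 0.805). Slc25a44 then differed by -0.21 (limma adjusted p = 0.554), with every OE value below Ctrl 2 and Ctrl 3, as for 18.8% of genes tested. Paqr6, the nearest neighbour of Bglap3, stood between 0.0609 and 0.172 FPKM in OE and between 0.0961 and 0.203 in Ctrl, below the filter for testing. The pseudogenes Gm21956 and Gm6821 between the copies had no row and were not analysed here.

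Bone cell markers were low in the same libraries as osteocalcin. The list held 14 genes of osteoblasts and osteocytes, among them Alpl, Ibsp, Phex and Dmp1, and none was listed at 0. Its 14 members tested had a median log2 difference of 1.93, against -0.04 over all genes tested, and 0 of 14 passed with all 6 libraries. Leaving out the library labelled Ctrl 1 gave a median of 2.88, and 13 of 14 were called higher (background 4.37%). The mean level of the list in log2(FPKM + 1) was 5.90, 5.21 and 4.84 across OE 1 to 3, 5.29 for the library labelled Ctrl 1, with 2.47 and 2.55 for Ctrl 2 and Ctrl 3. In bulk bone, fewer cells of a type and less RNA per cell cannot be told apart. The ratio of the OE mean to the mean of Ctrl 2 and Ctrl 3 ran from 5.15 to 25.7 over the 14 markers with a median of 10.2, against 34.8 for Bglap. In the cartilage list, whose low libraries were the same, the ratio ran from 7.31 to 318 with a median of 31.0, and 4 of 10 members lay above Bglap, Col10a1 highest. Some of these ratios have very low denominators and are uncertain. Matn1 stood at 0.0294 and 0.0380 FPKM in Ctrl 2 and Ctrl 3, and Sox9 at 0.0336 and 0.104. Smpd3, a sphingomyelinase needed for bone mineralization, had the 25.7-fold ratio, and Cdh11, a cadherin of osteoblasts, the ratio of 5.15.

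Osteocalcin was also set relative to these markers, as log2(sum + 1) minus the list level. This difference was 5.92, 6.96 and 6.64 across OE 1 to 3, 6.56 for the library labelled Ctrl 1, with 4.63 and 3.96 for Ctrl 2 and Ctrl 3. OE 1 had the highest marker level and the lowest relative osteocalcin of the OE libraries, below the library labelled Ctrl 1, so the groups overlapped. The means were 6.51 ± 0.53 in OE and 5.05 ± 1.35 in Ctrl (SD, n = 3 each), a difference of 1.46 with an exact two-sided permutation p = 0.2. The difference was 2.21 without the library labelled Ctrl 1 and 0.91 without Ctrl 3 (exact two-sided permutation p = 0.4).

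**Figure D4:**
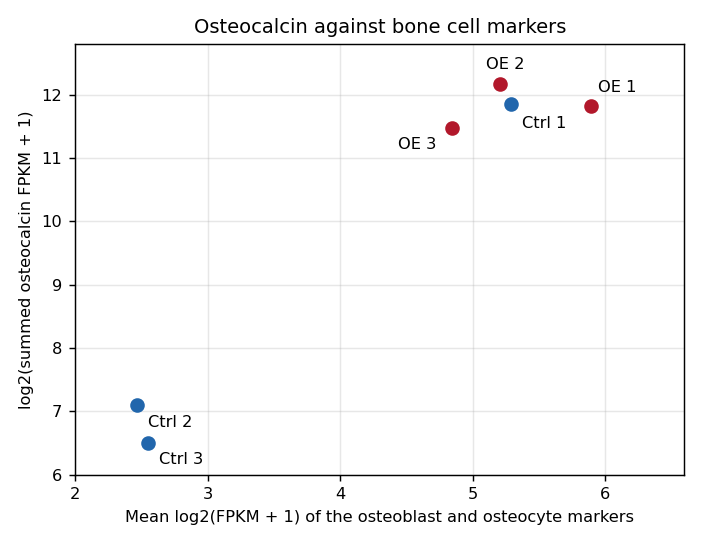
Summed osteocalcin, log2(FPKM + 1), against the mean log2(FPKM + 1) of 14 osteoblast and osteocyte markers, with 1 point per library (OE red, Ctrl blue). Ctrl 2 and Ctrl 3 are low on both axes, and among the other 4 libraries OE 1 is highest on the marker axis and OE 2 on the osteocalcin axis.

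Transcription factors known to act on the osteocalcin promoter gave calls for some and not for others. Of 15 listed, 14 were tested, Msx2 being below the filter, and 11 had a positive difference with a median of 0.86. None passed with all 6 libraries. Without the library labelled Ctrl 1, 7 of 14 were called higher and 0 lower (background 4.37% and 0.666%), among them Sp7, Vdr, Dlx3, Dlx5, Twist1 and Hey1. Some of these factors, such as Sp7 and Dlx5, are also in the bone cell list. Vdr, the vitamin D receptor, stood at 20.4, 11.5 and 13.0 FPKM across OE 1 to 3, 12.4 for the library labelled Ctrl 1, with 3.28 and 4.64 for Ctrl 2 and Ctrl 3. OE 2 lay below the library labelled Ctrl 1, so the groups overlapped, and Ctrl 2 and Ctrl 3 lay below the other 4 libraries.

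Twist1, which restrains Runx2, stood at 16.4, 14.1 and 10.6 FPKM across OE 1 to 3, 13.9 for the library labelled Ctrl 1, with 1.29 and 1.36 for Ctrl 2 and Ctrl 3. Sp7, which acts downstream of Runx2 in osteoblast formation, stood at 39.3, 24.0 and 18.3 FPKM across OE 1 to 3, 28.0 for the library labelled Ctrl 1, with 2.35 and 2.67 for Ctrl 2 and Ctrl 3. In limma with all 6 libraries Vdr differed by 1.18 (SE 0.43), Twist1 by 1.75 (SE 0.71) and Sp7 by 1.92 (SE 0.82), each with adjusted p = 0.554. The factors whose motifs match in the Bglap region printed above did not pass. Runx2 averaged 14.1 ± 5.57 FPKM over OE and 9.07 ± 1.72 over Ctrl (SD, n = 3 each; limma difference 0.54, SE 0.27, adjusted p = 0.560). Leaving out the library labelled Ctrl 1, it differed by 0.54 (SE 0.32, limma adjusted p = 0.484). Atf4 differed by -0.20 (SE 0.17, limma adjusted p = 0.658).

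Genes that carboxylate and process osteocalcin gave few calls. Of 8 listed, 7 were tested and 5 had a positive difference with a median of 0.08. None was called with all 6 libraries, and 1 of 7 was called higher without the library labelled Ctrl 1 (background 4.37%). That gene was Vkorc1, the vitamin K epoxide reductase, at 80.6, 76.3 and 54.2 FPKM across OE 1 to 3, 94.2 for the library labelled Ctrl 1, with 29.9 and 24.4 for Ctrl 2 and Ctrl 3. Its limma difference was 0.74 (SE 0.49, adjusted p = 0.594) with all 6 libraries and 1.33 (SE 0.23, adjusted p = 0.0294) without the library labelled Ctrl 1. Calu, calumenin, which inhibits the carboxylase, differed by 0.51 (SE 0.27, limma adjusted p = 0.561). Furin, the convertase that cleaves pro-osteocalcin, was at 35.6, 31.5 and 24.1 FPKM across OE 1 to 3, against 36.0 for the library labelled Ctrl 1, with 35.8 and 44.1 for Ctrl 2 and Ctrl 3. Every OE value lay below every Ctrl value, as for 8.97% of genes tested, or 18.8% without the library labelled Ctrl 1 (limma difference -0.35, SE 0.18, adjusted p = 0.561). Ggcx, the gamma-carboxylase itself, was listed at 0 in all 6 libraries, which can be a failed estimate.

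The list of other vitamin K-dependent proteins was short. Of 8 listed, 5 were tested and 4 had a positive difference with a median of 0.13, and 0 of 5 were called with all 6 libraries (background 0%) or, as higher, without the library labelled Ctrl 1 (background 4.37%). Mgp, the matrix Gla protein that inhibits calcification, stood at 149.7, 189 and 90.4 FPKM across OE 1 to 3, 167 for the library labelled Ctrl 1, with 111 and 85.7 for Ctrl 2 and Ctrl 3. Its groups overlapped (limma difference 0.23, SE 0.34, adjusted p = 0.820). Ucma, a Gla-rich protein of cartilage, differed by 0.62 (SE 0.50, limma adjusted p = 0.653), Prrg2, a membrane Gla protein, by -0.45 (SE 0.21, limma adjusted p = 0.554) and Pros1, protein S, by 0.13 (SE 0.12, limma adjusted p = 0.692). Of 6 receptors and endocrine partners of osteocalcin, Ptprv had no matched row, and 2 were tested. Insr, the insulin receptor, differed by 0.01 (SE 0.24, limma adjusted p = 0.990) and Foxo1 by 0.53 (SE 0.33, limma adjusted p = 0.583). Gprc6a, a proposed osteocalcin receptor, was listed at 0 in all libraries.

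Markers of other tissues moved with osteocalcin although the femurs are labelled as freed of cartilage and marrow. Cartilage markers (10 listed, none at 0) had summed levels of 274 to 574 FPKM in OE and 16.4 to 354 in Ctrl, with a median difference of 2.28 over 10 tested, all positive. Muscle markers (9 of 10 matched, none at 0) summed to 1363 to 1776 FPKM in OE and 254 to 1590.5 in Ctrl, with a median difference of 1.50 over 9 tested, all positive. Osteoclast markers (9 of 10 matched, none at 0) summed to 1473 to 3819 FPKM in OE and 1142 to 3272 in Ctrl, with 5 of 8 tested positive and a median of 0.94. Among all genes tested 43.7% had a positive difference. Once the library labelled Ctrl 1 was left out, 9 of 9 cartilage, 7 of 9 muscle and 3 of 8 osteoclast markers tested were called higher, against a background of 4.37%. Ctrl 2 and Ctrl 3 were the lowest libraries in the level of each of these lists, and the part of this in the osteocalcin values was not tested.

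Ctrl 2 and Ctrl 3 were not the lowest libraries in the summed levels of the blood cell lists. In mean log2(FPKM + 1), though, the B-cell list was lowest in Ctrl 3 (2.44) and Ctrl 2 (2.56), with OE 1 next at 2.65. The neutrophil, erythroid and megakaryocyte lists were lowest in an OE library by that measure too. Neutrophil markers (10 listed, none at 0) summed to 60403 to 168969 FPKM in OE and 105144 to 144725 in Ctrl, with 10 of 10 negative and a median of -0.59. Erythroid markers (9 of 10 matched, none at 0) summed to 1399 to 45393 FPKM in OE and 1737 to 10046 in Ctrl, with OE 3 highest in 9 of 9. OE 3 was also highest in 8 of 8 B-cell markers (8 of 9 matched, none at 0), which summed to 50.4 to 413 FPKM in OE and 53.4 to 66.8 in Ctrl. It was highest in 8 of 8 megakaryocyte markers (8 listed, none at 0), which summed to 322 to 2187 FPKM in OE and 588 to 1473 in Ctrl. OE 3 was the OE library with the least osteocalcin, and the part of these marker levels in that value was not tested.

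**Figure D5:**
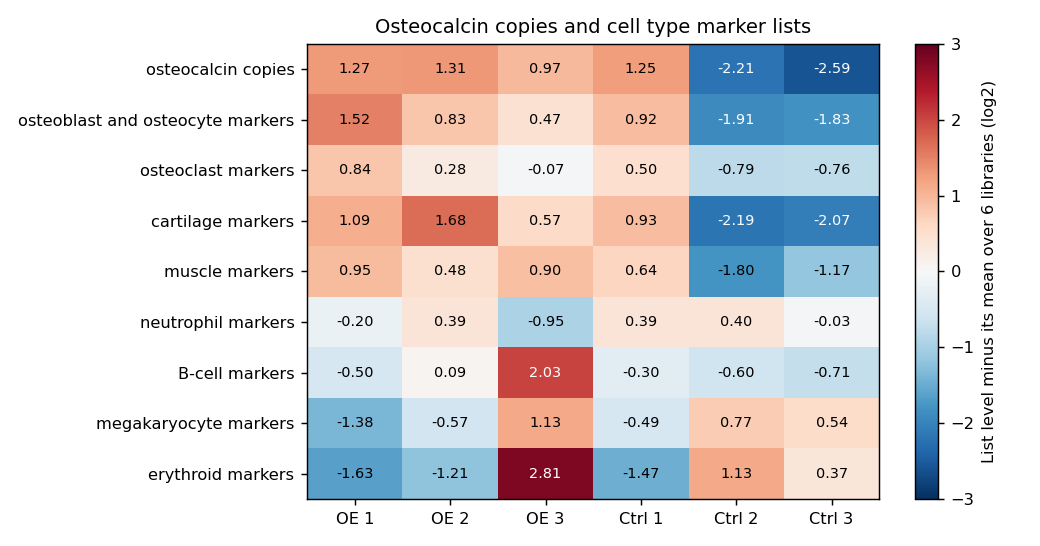
Mean log2(FPKM + 1) of the osteocalcin copies and of 8 cell type marker lists in each library, each list centred on its mean over the 6 libraries; red is above and blue below that mean. The osteocalcin copies, at -2.21 in Ctrl 2 and -2.59 in Ctrl 3, share their low libraries with the bone, osteoclast, cartilage and muscle lists, and OE 3 stands out in the erythroid list at 2.81. The B-cell list is also lowest in Ctrl 3 (-0.71) and Ctrl 2 (-0.60), close to OE 1 at -0.50.

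The genes most like Bglap were ranked by Pearson correlation of log2(FPKM + 1) over the 6 libraries among 11775 genes, as a description in which Ctrl 2 and Ctrl 3 are the low points. They were Cgref1 (0.998), Gpx8 (0.998), Tmem119 (0.997), Sccpdh (0.997) and Clec3a (0.996), and Bglap2 itself had 0.997. Cgref1 stood at 49.7, 47.4 and 29.8 FPKM across OE 1 to 3, 44.0 for the library labelled Ctrl 1, with 1.95 and 1.50 for Ctrl 2 and Ctrl 3. Tmem119, a membrane protein of the osteoblast lineage, stood at 40.9, 36.6 and 31.1 FPKM across OE 1 to 3, 37.6 for the library labelled Ctrl 1, with 6.17 and 5.03 for Ctrl 2 and Ctrl 3. Both thus shared the low libraries of Bglap over a smaller range. For Bglap2 the nearest genes were Gm10709 (0.9996), annotated as a processed pseudogene so that its value is uncertain, Snx24 (0.994), Col10a1 (0.994), 1500015O10Rik (0.994) and Cisd3 (0.993). Col10a1, the collagen of hypertrophic cartilage, stood at 91.2, 138 and 68.6 FPKM across OE 1 to 3, 64.1 for the library labelled Ctrl 1, with 0.406 and 0.218 for Ctrl 2 and Ctrl 3.

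Bglap3 had other nearest genes, namely Slc12a4 (0.996), Cpt1c (0.995), Cul7 (0.995), Egr1 (0.992) and Loxl1 (0.992), and correlated at 0.866 with Bglap and 0.842 with Bglap2. The added 1 shrinks the range of so low a gene, and its Ctrl 2 and Ctrl 3 values lie below the floor of 3 fragments. These correlations depend on both, so they do not show that Bglap3 follows the libraries differently from the other copies. Slc12a4, a potassium-chloride cotransporter, stood at 14.8, 8.27 and 10.7 FPKM across OE 1 to 3, 11.1 for the library labelled Ctrl 1, with 4.96 and 5.11 for Ctrl 2 and Ctrl 3. Like Bglap3 it was highest in OE 1 and, within OE, lowest in OE 2, which was the highest library for Bglap and Bglap2.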

How the data were processed

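Paired-end RNA-seq covered 3 OE and 3 Ctrl femur libraries, grouped and numbered by their titles. The authors deposited FPKM per gene, per the file headers. TopHat2, Cufflinks, DESeq and mm10 are named in the submitters' processing notes; their roles, settings and strand handling are not stated there. FPKM is scaled to each library's total, so a few abundant genes lower all others. Of 22824 rows, 21606 carry an Ensembl identifier and 21172 matched a symbol in GENCODE M21 (GRCm38).

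log2(FPKM + 1) was modelled with limma 3.58.1 (R 4.3.3, eBayes with trend) for genes reaching 1 FPKM in 3 or more libraries, with Benjamini-Hochberg adjustment over all genes and a threshold of 0.05. That fit was tested on simulated data with known changes, drawn with independent noise of equal spread in both groups. The simulation held no library set apart from its group, so it says nothing on that case. Single values were compared by exact two-sided permutation. Depth came from single-transcript genes over 1500 bases, where FPKM times length clusters at whole multiples of 1 fragment. Fragment numbers use full transcript lengths and cover counting error only. Other steps ran in Python 3.11.15 with scipy 1.17.1, pandas 2.3.3, numpy 2.4.6 and, for plots, matplotlib 3.10.9.

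Members and lists were chosen with earlier results of these data known. Named genes were the members, Wnt7b, the neighbours, the 4 genes of smallest limma p in each list with those at 0 throughout, and the 5 genes most like each member; some genes under this rule are not reported here. Other genes, such as Runx2, Atf4, Smpd3 and Cdh11, were named after their values were seen. Alternatives were pseudocount 0.1, no filter, a filter of 5 FPKM, no trend, 2 scalings, a block for the replicate number, and omission of libraries.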

Additional observations from a re-analysis of the deposited data

How the results depend on the processing

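With all 6 libraries, the other pseudocount, both filters, no trend and both scalings changed no call. The differences stayed at 3.40 to 3.50 for Bglap, 3.15 to 3.25 for Bglap2 and 0.53 to 1.81 for Bglap3, the highest with a pseudocount of 0.1. Filters, trend and scaling do not enter the shares, nor filters and trend the sum. Leaving out single libraries gave 2.39 to 5.10 for Bglap, 2.21 to 4.78 for Bglap2 and 0.33 to 0.86 for Bglap3. It gave 2.35 to 5.02 for the sum, 0.91 to 2.21 for osteocalcin relative to markers, and 1.07 to 5.63 points for the Bglap share. Only without the library labelled Ctrl 1 were Bglap and Bglap2 called, with 605 genes in all and 0 in each other single omission. Without OE 3 as well, 954 genes were called, and Bglap differed by 5.32 (limma adjusted p = 2.91e-04) and Bglap2 by 4.85 (limma adjusted p = 3.08e-04). The cause was not tested. The difference in Bglap3 share, -3.50e-05 points with all libraries, had no stable sign: single omissions gave -0.00764 to 0.00795 and the joint omission 0.000208.

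With the replicate number as a block, 0 genes were called (limma), and Bglap differed by 3.40 (SE 1.04, adjusted p = 0.245), Bglap2 by 3.15 (adjusted p = 0.291) and Bglap3 by 0.53 (adjusted p = 0.255). The summed difference was 3.34 (exact sign-flip permutation p = 0.5) and the Bglap share difference 3.39 points (exact p = 0.25, the smallest 3 pairs allow). Same-numbered libraries correlated in their deviations from the group means at 0.442, 0.0866 and 0.311, and OE 2 correlated best with the library labelled Ctrl 1, so the numbers are not taken to pair the libraries.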

Other observations

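Type I collagen transcripts have zeros that do not go with the osteocalcin level. Both Col1a1 and Col1a2 are listed at 0 for OE 1, where Bglap was 2711 FPKM, and for the library labelled Ctrl 1, where Bglap was 2552 FPKM. Such zeros can be failed estimates, so they do not show that type I collagen RNA was absent. Col1a1 was 3504 FPKM for OE 2 and 3278 for OE 3, against 179 for Ctrl 2 and 276 for Ctrl 3. These genes are in none of the marker lists.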
